A study of Mus musculus with 8 samples.

Results

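Elf4 and the ETS factors related to it were followed in liver RNA of mice that differed in diet and in intestinal Elf4. The genes were chosen by name, as Elf1, Elf2, Elf3, Elf4, Ets1, Ets2, Erg, Fli1, Gabpa and Spi1, and all 10 are among the 19267 genes of the count table. Earlier results of these data were known when these genes were chosen. They are 10 of the 23 ETS-family genes found there. Male C57BL/6 mice were pair-fed for 21 days on Lieber-DeCarli liquid diet and sampled at 9 weeks of age. The EtOH diet held 5% alcohol by weight per volume, and the Control diet held maltose dextrin of equal calories in its place. WT mice carry Cre, and Elf4-/- mice are Elf4fl/fl-Villin-Cre animals in which the Vil1 promoter drives the deletion of Elf4 in intestinal epithelium. Liver cells of Elf4-/- mice are therefore not the target of the deletion. Each of the 4 groups has 2 libraries and is named by genotype and diet, as in WT-Control or Elf4-/--EtOH. The labels do not say whether replicate libraries came from separate animals, so the p-values measure only the spread between these libraries, which may be technical.

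ETS factors share a DNA-binding domain that reads the core GGAA, and members differ mainly in the cells that make them and in the partners they bind with. Elf1, Elf2 and Elf4 form the ELF group, in which Elf4 is known for roles in lymphocytes and in innate immunity. Erg and Fli1 are factors of endothelial cells and of blood stem cells and platelet precursors. Spi1 (PU.1) directs macrophage and B cell development, Ets1 is made in lymphocytes and endothelium, and Ets2 is a target of growth factor signalling. Gabpa is a broadly made factor of genes for the respiratory chain, and Elf3 is a factor of epithelia.

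Library totals ran from 6171051 to 9157362 counts, and 13993 genes were tested. Levels are given as CPM, the counts of a gene relative to the library total after scaling by TMM factors. The share of counts from mitochondrial genes ran from 10.8% to 33.7%. In WT mice it was 33.7% and 23.4% on Control against 12.5% and 10.8% on EtOH, without overlap, and it was 18.3% to 22.1% in the Elf4-/- libraries. Alb, the main hepatocyte secretory protein, was abundant in every library, at 21676 to 42753 CPM. Vil1, whose promoter drives the Cre, was at 0.253 to 1.95 CPM in liver. Scaling by library totals alone shifted the all-gene median log2 fold change by 0.432 for diet in WT and by 0.198 for diet over both genotypes, so diet differences are relative to TMM scaling.

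The promoters of Elf4, Erg and Ets2, which were higher after EtOH in the data below, are shown with that of Gabpa, which was not called. Each runs from 250 bases before to 50 bases after a transcription start of RefSeq on GRCm38.p6 and is written 5′ to 3′ on the gene's strand, with every GGAA, or TTCC where the core is on the opposite strand, in capitals. The Elf4 promoter is chrX:48463083-48463382 on the minus strand, the Erg promoter chr16:95586544-95586843 on the minus strand, the Ets2 promoter chr16:95702157-95702456 on the plus strand and the Gabpa promoter chr16:84834874-84835173 on the plus strand.
Elf4: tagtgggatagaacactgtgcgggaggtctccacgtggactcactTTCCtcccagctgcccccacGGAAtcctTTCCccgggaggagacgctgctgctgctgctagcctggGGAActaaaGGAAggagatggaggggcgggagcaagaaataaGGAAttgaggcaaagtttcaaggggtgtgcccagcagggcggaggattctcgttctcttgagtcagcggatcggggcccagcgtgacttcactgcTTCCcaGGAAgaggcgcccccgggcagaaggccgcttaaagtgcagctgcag
Erg: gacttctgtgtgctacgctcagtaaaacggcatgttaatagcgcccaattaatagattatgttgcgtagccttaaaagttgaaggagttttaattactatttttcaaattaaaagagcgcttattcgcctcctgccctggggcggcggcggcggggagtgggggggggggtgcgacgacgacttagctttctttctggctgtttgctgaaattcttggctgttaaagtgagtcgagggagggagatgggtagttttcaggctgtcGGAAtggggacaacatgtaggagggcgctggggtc
Ets2: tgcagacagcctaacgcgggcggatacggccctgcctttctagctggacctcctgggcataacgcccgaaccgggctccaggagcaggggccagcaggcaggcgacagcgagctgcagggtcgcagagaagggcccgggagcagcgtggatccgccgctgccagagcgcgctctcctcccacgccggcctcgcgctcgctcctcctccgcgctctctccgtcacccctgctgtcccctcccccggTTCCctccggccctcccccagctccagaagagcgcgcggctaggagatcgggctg
Gabpa: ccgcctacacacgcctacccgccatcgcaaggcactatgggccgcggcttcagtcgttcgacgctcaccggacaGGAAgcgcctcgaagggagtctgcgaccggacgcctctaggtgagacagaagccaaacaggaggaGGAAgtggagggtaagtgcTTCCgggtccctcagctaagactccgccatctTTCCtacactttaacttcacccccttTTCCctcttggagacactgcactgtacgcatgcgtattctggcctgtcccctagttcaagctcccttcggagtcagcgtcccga

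The core was counted on both strands. It occurs 8 times in the Elf4 promoter shown, 5 times in that of Gabpa and 1 time each in those of Erg and Ets2. Over 32851 promoters of the same length, 95.98% hold at least 1 GGAA, the median is 3 matches and the 90th percentile 6. A share of 3.72% hold 8 or more, as this Elf4 promoter does. A second Elf4 start, at chrX:48454270-48454569, has 2 matches, and further Erg starts have 4 and 2. The longer CGGAAG, which contains GGAA, occurs in 16.85% of promoters, 1 time in that of Gabpa and not in these letters in the windows of Elf4, Erg and Ets2. Of the 10 genes, 7 have a promoter in the RefSeq set. These matches describe the letters only.

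On GRCm38, Elf4 is at chromosome X 48411046 to 48463132 (minus strand), Erg at chromosome 16 95359169 to 95586593 (minus), Ets2 at chromosome 16 95702075 to 95721051 (plus) and Spi1 at chromosome 2 91082390 to 91115756 (plus), and these 4 protein-coding genes overlap no other GENCODE M21 gene. The other 6 overlap at least 1 gene. Gabpa, at chromosome 16 84834925 to 84863779, overlaps Atp5j on the opposite strand, Elf1 overlaps Wbp4, and Ets1, Fli1 and Elf3 each overlap an antisense gene. Whether counting used strand is not given in the sources used here, so reads of these pairs cannot be told apart.

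Per kilobase of exon, Gabpa had the highest median of the 10 genes over all libraries and Elf4 the lowest. The median level over the 8 libraries was 7.67 CPM per kilobase for Gabpa, 3.79 for Ets2, 2.68 for Elf2, 2.0 for Spi1, 1.51 for Elf1, 1.5 for Ets1, 1.49 for Erg, 1.15 for Fli1, 0.673 for Elf3 and 0.346 for Elf4. Elf4 ran from 0.146 to 0.734 CPM per kilobase and Elf3 from 0.135 to 0.878, so the lowest pair could not be ordered beyond their spread. Gabpa, at 7.09 to 9.43, lay just above the highest library of Ets2, which ran from 2.50 to 7.09. Every other neighbouring pair in the order overlapped in range. The order at the low end differed between groups, with a mean of 0.576 CPM per kilobase for Elf4 and 0.498 for Elf3 in WT-EtOH, and of 0.483 for Erg and 0.503 for Elf3 in WT-Control. Among the other family genes, Elk4, a partner of serum response factor, had a median of 8.62 CPM per kilobase.

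**Figure D1:**
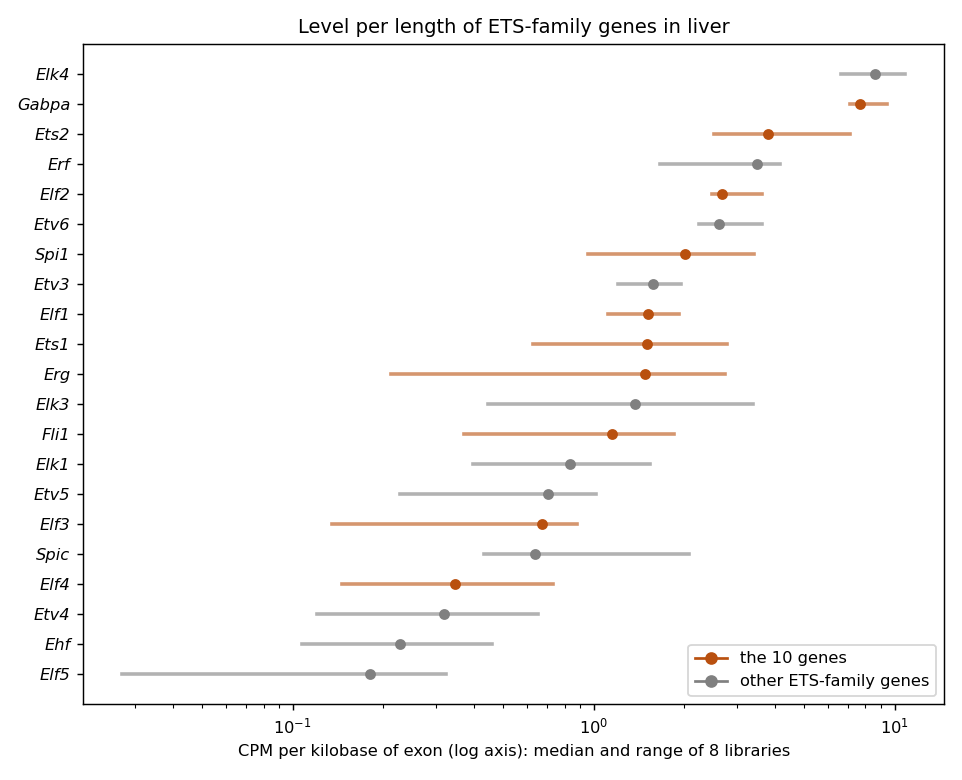
Level of ETS-family genes in liver as CPM per kilobase of exon on a log axis. Points are medians and lines the range over 8 libraries, with the 10 genes in orange and other family genes in grey. Family genes with a library at 0 are not drawn. Elf4 lies near the low end, with a median of 0.346.

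Elf4 was measured at low counts and was higher after EtOH. Its level was 1.12 and 2.02 CPM on Control and 3.41 and 3.67 CPM on EtOH in WT mice, and 1.23 and 0.895 CPM on Control and 2.23 and 4.51 CPM on EtOH in Elf4-/- mice, from 6 to 36 counts. All 4 EtOH libraries were above all 4 Control libraries, and the Elf4-/- libraries were not separated from the WT libraries on either diet. Over both genotypes the diet difference was 1.40 ± 0.39 (log2, SE), a fold of 2.64, with an adjusted p of 0.0254 (edgeR, quasi-likelihood, Benjamini-Hochberg over the 13993 genes). In each genotype alone it was not called, at 1.16 ± 0.55 in WT (adjusted p = 0.159) and 1.64 ± 0.56 in Elf4-/- (adjusted p = 0.133). With any of 6 libraries left out in turn the call over both genotypes was lost, with the log2 fold change at 1.09 to 1.53 and the adjusted p at 0.0648 to 0.0897. It was kept without WT-Control replicate 2 and without Elf4-/--EtOH replicate 1. For this and all later results, more cells of a type and more RNA per cell cannot be told apart in bulk liver.

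Genotype differences of Elf4 were small beside their intervals. The log2 fold change of Elf4-/- against WT was -0.06 under EtOH (95% interval -1.18 to 1.06) and -0.54 under control diet (-1.91 to 0.83), and the adjusted p was 0.985 and 0.912. These intervals admit a fall or a rise of liver Elf4. A count per gene does not show which exons were read.

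Erg had the largest diet difference of the 10 genes over both genotypes and in WT. Its level was 2.61 and 0.736 CPM on Control and 8.85 and 9.48 CPM on EtOH in WT mice, and 3.07 and 4.33 CPM on Control and 7.65 and 5.97 CPM on EtOH in Elf4-/- mice. All EtOH libraries were above all Control libraries, and the second WT-Control library held 4 counts. Over both genotypes Erg rose by 1.67 ± 0.33 (log2, SE; fold 3.18, adjusted p = 0.00557), and in WT by 2.45 ± 0.49 (fold 5.45, adjusted p = 0.00888). The WT value ran from 1.81 without WT-Control replicate 2 to 3.61 without WT-Control replicate 1, passing in both, and without WT-EtOH replicate 2 it missed the threshold (2.38, adjusted p = 0.0637). In Elf4-/- the difference of Erg was 0.89 ± 0.44 (adjusted p = 0.274), and the largest of the 10 there was that of Elf4 (1.64).

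Fli1, its closest relative, measured 3.36 and 1.29 CPM on Control and 6.45 and 6.01 CPM on EtOH in WT mice, and 3.48 and 3.43 CPM on Control and 5.90 and 4.51 CPM on EtOH in Elf4-/- mice. The diets again did not overlap. Fli1 rose by 1.0 ± 0.31 over both genotypes (adjusted p = 0.0389). In WT its log2 fold change of 1.42 ± 0.46 missed the threshold, with an adjusted p of 0.0511. It passed under 3 of 7 alternative settings, with an adjusted p of 0.0138 to 0.0605 over the 7. With 1 library left out it passed in 3 of 8 fits and ran from 0.89 without WT-Control replicate 2 (adjusted p = 0.209) to 2.26 without WT-Control replicate 1 (0.0336).

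Ets1 measured 11.4 and 5.34 CPM on Control and 20.2 and 23.4 CPM on EtOH in WT mice, and 12.5 and 12.1 CPM on Control and 19.6 and 13 CPM on EtOH in Elf4-/- mice. The lowest EtOH library stood just above the highest Control library, both in Elf4-/-. Ets1 rose by 0.89 ± 0.24 over both genotypes (adjusted p = 0.0203) and by 1.39 ± 0.34 in WT (adjusted p = 0.0193). Ets2 measured 16.6 and 17.3 CPM on Control and 34.4 and 35.4 CPM on EtOH in WT mice, and 20.8 and 14.5 CPM on Control and 41.0 and 23.0 CPM on EtOH in Elf4-/- mice. Its diet groups did not overlap, and the Elf4-/--EtOH libraries lay on either side of the WT-EtOH libraries. Ets2 rose by 0.94 ± 0.20 over both genotypes (fold 1.92, adjusted p = 0.00795) and by 1.04 ± 0.29 in WT (adjusted p = 0.0298).

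Spi1, the macrophage factor, measured 5.22 and 2.58 CPM on Control and 9.10 and 9.17 CPM on EtOH in WT mice, and 3.07 and 4.48 CPM on Control and 5.58 and 6.37 CPM on EtOH in Elf4-/- mice. All EtOH libraries were above all Control libraries, and the Elf4-/--EtOH pair was below the WT-EtOH pair. Spi1 rose by 0.95 ± 0.27 over both genotypes (adjusted p = 0.0280) and by 1.23 ± 0.39 in WT (adjusted p = 0.0484). The WT call was lost with DESeq2 (adjusted p = 0.0635) and with the replicate number as a block (0.0688).

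The other 4 genes did not pass for diet. Gabpa measured 41.6 and 42.0 CPM on Control and 47.9 and 53.6 CPM on EtOH in WT mice, and 44.5 and 42.8 CPM on Control and 45.1 and 40.3 CPM on EtOH in Elf4-/- mice, and its log2 fold change over both genotypes was 0.12 (95% interval -0.15 to 0.40). Elf2 measured 30.6 and 23.7, 25.7 and 25.6, 34.5 and 31.6, and 23.9 and 25.2 CPM in the same groups, with a log2 fold change of -0.26 (-0.56 to 0.05). Both intervals lie within a change of 1 on the log2 scale. Scaled by library totals, Gabpa passed in WT, at 0.72 (adjusted p = 0.0208). Elf1 measured between 7.49 and 12.9 CPM, with 0.16 (-0.32 to 0.65), and Elf3 between 0.298 and 1.95 CPM, with 0.23 (-1.11 to 1.56). Elf3 held 2 to 19 counts a library, so a change of that size was not detectable at this depth.

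**Figure D2:**
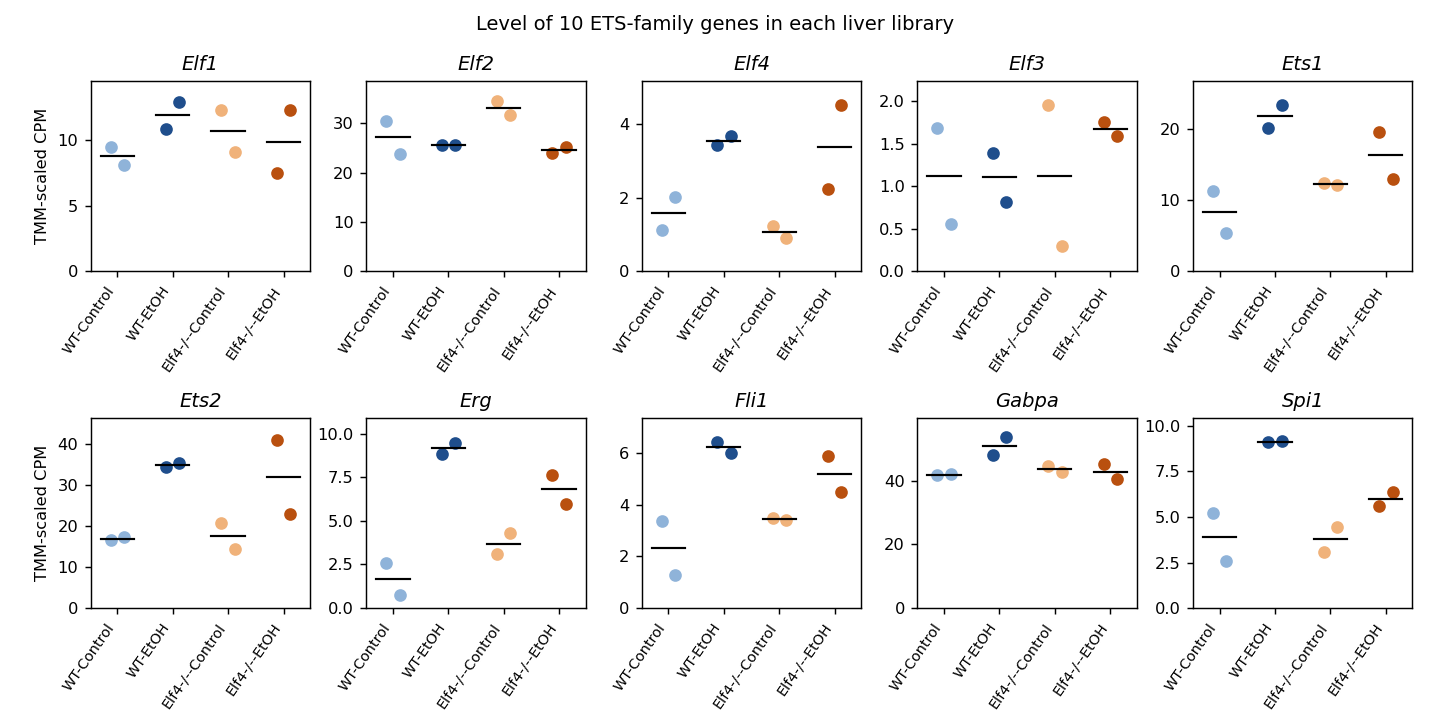
Level of each of the 10 genes in TMM-scaled CPM (y axis, from 0) in the 4 groups (x axis). Points are libraries, and the line is the mean of the 2. In the panels of Elf4, Ets1, Ets2, Erg, Fli1 and Spi1 every EtOH library is above every Control library.

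The 10 genes were chosen with earlier results of these data known, so the counts and medians here are a description without a test. Counted over the 10 genes, 6 rose with EtOH over both genotypes, beside 14.1% of all genes tested. In WT, where the mitochondrial share was lower on EtOH, 4 rose (Erg, Ets1, Ets2 and Spi1), beside 10.8% of all genes, and in Elf4-/- none passed, beside 1.71%. In Elf4-/- 3 had an unadjusted p under 0.05, of which Elf4 and Ets2 were higher and Elf2 lower (-0.43). DESeq2 called 0 of the 10 in Elf4-/-, where it called 443 genes higher and 346 lower among all genes. The median log2 fold change of the 10 genes was 0.92 over both genotypes, 1.10 in WT and 0.53 in Elf4-/-, against 0.01 for all genes tested in each. EtOH libraries lay above Control libraries without overlap for 6 of the 10 genes over all 8 libraries, beside 13.9% of all genes tested. The same genes were without overlap in each genotype, where the share of all genes is 34.1% in WT and 25.8% in Elf4-/-, and in WT Elf1 and Gabpa were added. Scaling by library totals gave 3422 higher and 634 lower genes for diet in WT where TMM gave 1518 and 1507, and 2984 and 1057 over both genotypes where TMM gave 1978 and 1938.

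The counts depended on single libraries. Over both genotypes 2 genes, Ets2 and Erg, passed without WT-EtOH replicate 1, without WT-EtOH replicate 2, without Elf4-/--Control replicate 1 and without Elf4-/--Control replicate 2, and these 2 passed in all 8 such fits. Fli1 was also lost without WT-Control replicate 2 (adjusted p = 0.0896) or Elf4-/--EtOH replicate 1 (0.0773), and Spi1 without WT-Control replicate 2 (0.0708). In WT the count was 1 without WT-Control replicate 2 or WT-EtOH replicate 1, in each case Erg, and 0 without WT-EtOH replicate 2. Ets2 was also lost in WT without WT-Control replicate 1 (adjusted p = 0.128), and Spi1 without Elf4-/--Control replicate 1 (0.0668) or replicate 2 (0.0681). In Elf4-/- it became 1, Ets2 with an adjusted p of 0.0112, without Elf4-/--EtOH replicate 2. The all-gene counts moved in the same fits. Genes higher in WT, 1518 with all libraries, were 774 without WT-Control replicate 1, 881 without WT-Control replicate 2, 548 without WT-EtOH replicate 1 and 373 without WT-EtOH replicate 2. Genes higher in Elf4-/-, 239 with all libraries, were 5 without either Elf4-/--Control library, 79 without either WT-EtOH library, 125 without Elf4-/--EtOH replicate 1 and 824 without Elf4-/--EtOH replicate 2. Over both genotypes, 1978 became 1129 and 1052 without WT-EtOH replicate 1 and 2, and 1203 and 1107 without Elf4-/--Control replicate 1 and 2.

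**Figure D3:**
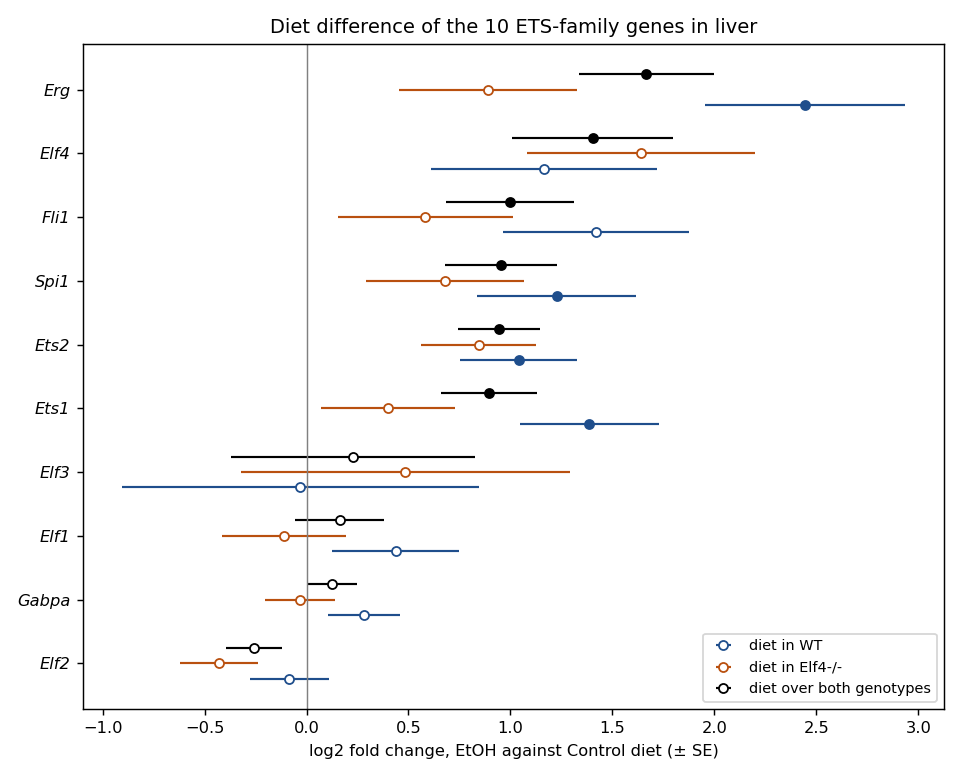
Log2 fold change of EtOH against Control (x axis) of each gene in WT (blue), in Elf4-/- (orange) and over both genotypes (black). Bars are SE, and filled points have an adjusted p under 0.05 by edgeR. Erg is at the top, at 1.67 over both genotypes, and the Elf4-/- points are all open.

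Between genotypes no gene of the 10 was called. Under EtOH the log2 fold change ran from -0.61 for Spi1 to 0.61 for Elf3, the smallest adjusted p was 0.612, and 0.143% of all genes passed. Under control diet it ran from -0.54 for Elf4 to 1.13 for Erg, the smallest adjusted p was 0.697, and 0.0143% of all genes passed. Neither comparison held a gene of the 10 with an unadjusted p under 0.05, and DESeq2 called 0 of the 10 in both. Among all genes DESeq2 called 148 higher and 30 lower under EtOH, and 40 higher and 30 lower under control diet. The interaction of genotype and diet, which tests whether the diet difference itself differs, called 0.0% of all genes. Erg had the largest interaction of the 10, at -1.56 ± 0.66 (log2, SE; adjusted p = 0.471), and it alone had an unadjusted p under 0.05. DESeq2 called 0 of the 10 there, where it called 71 genes higher and 27 lower among all genes. With edgeR, all-gene interaction calls were 41 higher and 21 lower without Elf4-/--EtOH replicate 1 and 92 higher and 47 lower without Elf4-/--EtOH replicate 2, with 0 of the 10 genes in each. The diet response of the 10 genes is thus not shown to differ between genotypes.

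Of the 13 other ETS-family genes in the table, 12 were tested. Elk3, a repressor made in endothelium, was the only 1 that rose over both genotypes, where 14.1% of all genes rose. It rose by 1.55 ± 0.26 (log2, SE; adjusted p = 0.00277), with 2.02 to 4.77 CPM in Control and 7.69 to 15.4 CPM in EtOH libraries. Elk4 fell by 0.57 over both genotypes (adjusted p = 0.00818), beside 13.8% of all genes that fell, with 60.7 to 69.5 CPM in Control and 42.4 to 49.7 CPM in EtOH libraries. Scaled by library totals, its adjusted p was 0.0522. In WT, 3 rose (Elk3, Spic and Etv1), where 10.8% of all genes rose. Elk4 fell there by 0.56 (adjusted p = 0.0471), where 10.8% of all genes fell. The WT call of Elk4 was lost with DESeq2 (adjusted p = 0.104), with no filter (0.0911) with the replicate number as a block (0.0613) and with library totals (-0.12, adjusted p = 0.643), as well as without any WT or any Elf4-/--Control library (adjusted p 0.0849 to 0.206). Elk3 missed in WT without WT-EtOH replicate 2 (adjusted p = 0.0561).

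Spic, a factor of iron-recycling macrophages, rose in WT by 1.87 ± 0.48 (adjusted p = 0.0226), from 1.68 and 1.66 CPM to 7.97 and 4.38 CPM. In Elf4-/- it measured 3.28 and 2.39 CPM on Control and 2.39 and 2.52 CPM on EtOH. The interaction of genotype and diet for Spic was -2.09 ± 0.67 and was not called (edgeR, adjusted p = 0.346), so a difference between genotypes is not shown. Its WT call was lost without any of the 4 WT libraries, with an adjusted p of 0.0536 to 0.183. Etv1 rested on 1 count in WT-Control and 25 in WT-EtOH, a ratio of 15.2 (95% exact interval 2.49 to 625, counting error only), and its call in WT (adjusted p = 0.0475) was lost with DESeq2 (0.0964), with no filter (0.0609) and without any WT or any Elf4-/--Control library (0.0717 to 0.206). In Elf4-/- none of the 12 passed, where 1.71% of all genes were higher, with 2 at an unadjusted p under 0.05.

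Markers of endothelium and of resident macrophages moved with the diet as well. Of all genes tested, 14.1% were higher over both genotypes, 10.8% in WT and 1.71% in Elf4-/-. Of 10 sinusoidal endothelial markers, 8 were higher over both genotypes and 9 in WT, and none passed in Elf4-/-. Their summed level was 178 and 93.8 CPM on Control and 422 and 512 CPM on EtOH in WT mice, and 241 and 268 CPM on Control and 391 and 247 CPM on EtOH in Elf4-/- mice. Of 10 Kupffer cell markers, 8 were higher over both genotypes, 10 in WT and 2 in Elf4-/-, and their sum was 291 and 225, 827 and 726, 219 and 211, and 322 and 298 CPM in the same groups. No marker of either list was at 0 in all libraries. The interaction of genotype and diet was called for no endothelial and no Kupffer marker (edgeR, smallest adjusted p 0.220 and 0.273). In each list 8 had an unadjusted p under 0.05 there. Between genotypes under EtOH, 2 Kupffer markers, Cd5l and Clec4f, were lower in Elf4-/- (edgeR, adjusted p = 0.0268 and 0.0418), beside 0.143% of all genes called in either direction. All 10 Kupffer markers were lower there at an unadjusted p under 0.05, and no endothelial marker was called. Of 8 stellate cell markers, 5 were higher over both genotypes. Of markers tested, 1 of 4 for monocytes, 1 of 3 for neutrophils and 1 of 6 for T and NK cells were higher. In the T and NK list 1 was lower, and of 3 B cell markers none was called. Of 6 bile duct markers 2 were lower, as were 2 of 5 erythroid markers, and of 3 intestinal epithelial markers none was called. Of 8 hepatocyte markers none rose and 1, Apoa1, fell, near the 13.8% of all genes that fell over both genotypes. The part of these markers in the rise of Erg, Fli1, Ets1 and Spi1 was not tested, nor was that of the mitochondrial share.

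The level of each factor was also read as a percent of these marker sums, a ratio chosen after the values were seen and given without a test. Erg was 1.47% and 0.784% of the endothelial sum on Control and 2.10% and 1.85% on EtOH in WT mice, and 1.27% and 1.61% on Control and 1.96% and 2.42% on EtOH in Elf4-/- mice. Every EtOH library was above every Control library on this ratio too. The share of all genes without overlap on this ratio was not computed, and the counting error of Erg is not included. Elk3 was at 1.78% to 2.16% in Control and 2.28% to 3.12% in EtOH libraries, also without overlap. Fli1, at 1.28% to 1.88% and 1.18% to 1.83%, and Ets1, at 4.51% to 6.39% and 4.58% to 5.27%, overlapped between diets. Elf4 overlapped on both sums, at 0.384% to 0.901% of the Kupffer sum in Control and 0.413% to 1.51% in EtOH libraries. Spi1 as a percent of the Kupffer sum was 1.15% to 2.12% in Control and 1.10% to 2.14% in EtOH libraries. Against the sum of the ERG and FLI1 target list described below, which shares 3 genes with the endothelial sum, Erg was without overlap. It was at 0.795% to 2.25% in Control and 2.64% to 3.32% in EtOH libraries. Elk3, at 2.19% to 2.77% and 3.41% to 4.70%, was also without overlap. Fli1, at 1.39% to 2.42% and 1.84% to 2.42%, and Ets1, at 5.77% to 8.20% and 5.87% to 7.58%, overlapped on that sum.

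**Figure D4:**
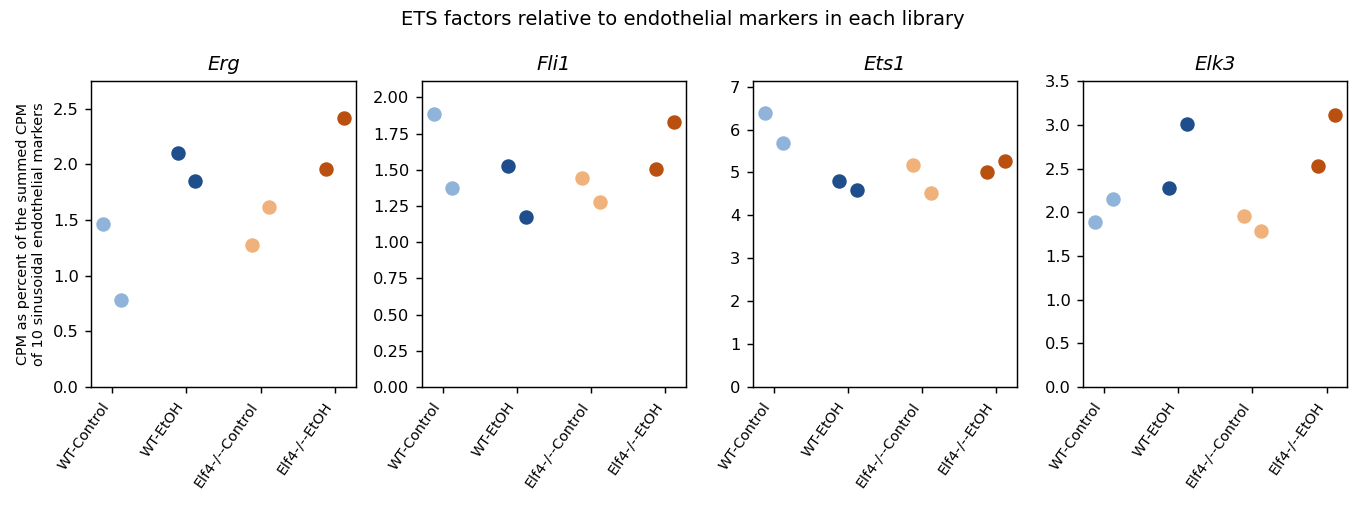
CPM of Erg, Fli1, Ets1 and Elk3 as a percent of the summed CPM of 10 sinusoidal endothelial markers (y axis, from 0) in each library, by group (x axis). The EtOH points of Erg (1.85% to 2.42%) and Elk3 lie above their Control points, and those of Fli1 and Ets1 overlap.

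Lists of genes known as targets of these factors were read for diet over both genotypes. The targets named for ERG, FLI1 and SPI1 are themselves genes of endothelial or myeloid cells. A rise of such genes cannot be told apart from that of the cell markers, and target activity was not tested. Of 11 tested targets of ERG and FLI1, which include 3 of the endothelial markers, 7 rose, where 14.1% of all genes rose. The list median was 1.28 on the log2 scale. Kdr, the main VEGF receptor, rose by 1.66 ± 0.21 (adjusted p = 0.000921), Egfl7, a secreted endothelial protein, by 1.06 ± 0.14 (adjusted p = 0.000986) and Tek, the angiopoietin receptor, by 1.34 ± 0.24 (adjusted p = 0.00383). All 3 passed in WT and none in Elf4-/-, where their adjusted p was 0.110 to 0.266. No interaction of genotype and diet was called in this list (edgeR, smallest adjusted p 0.220), with 5 at an unadjusted p under 0.05. Tek missed in WT without WT-EtOH replicate 2 (1.47, adjusted p = 0.0819). Of 11 tested SPI1 targets, which include 1 Kupffer and 1 monocyte marker, 7 rose beside the same 14.1%, with a median of 1.03. In WT 6 of them passed (median 1.45), and in Elf4-/- none (median 0.32). No interaction was called in the SPI1 list (edgeR, smallest adjusted p 0.314), with 3 at an unadjusted p under 0.05. In Elf4-/- Lyz2 was at 1.28 (adjusted p = 0.0565), Cybb at 0.80 (0.216) and Fcgr3 at 0.20 (0.822). Over both genotypes Lyz2, the macrophage lysozyme, rose by 1.69 ± 0.22 (adjusted p = 0.000978). Cybb, the catalytic subunit of the phagocyte oxidase, rose by 1.13 ± 0.24 (adjusted p = 0.00796), and Fcgr3, an activating IgG receptor, by 1.21 ± 0.29 (adjusted p = 0.0140). The SPI1 count was 4 without WT-Control replicate 2 or WT-EtOH replicate 2, and 2 without WT-EtOH replicate 1 or Elf4-/--Control replicate 2. Without the last pair Fcgr3 had an adjusted p of 0.0704 and 0.0554.

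The target lists of GABPA and ELF4 were mixed. Of 10 GABPA targets, 1 rose and 1 fell, with a median of -0.07, where 14.1% of all genes rose and 13.8% fell. Atp5b, the beta subunit of ATP synthase, rose by 1.61 ± 0.21 (adjusted p = 0.00103), and Polrmt, the mitochondrial RNA polymerase, fell by 0.51 (adjusted p = 0.0457). Tfb2m, a mitochondrial transcription factor, was at 0.38 ± 0.14 (adjusted p = 0.0640). The call of Polrmt was lost with DESeq2 (0.0765), with no filter (0.0570), with library totals (0.242) and without any library other than WT-Control replicate 1 and Elf4-/--EtOH replicate 2 (0.0960 to 0.149). Of 3 tested ELF4 targets, Klf2, a quiescence factor of lymphocytes and endothelium, rose by 1.09 ± 0.24 (adjusted p = 0.00851). Klf4 was at 1.31 ± 0.51 (adjusted p = 0.0813) and Mdm2, the p53 ubiquitin ligase, at -0.11 ± 0.13 (adjusted p = 0.582).

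Of 12 tested partner factors, 2 rose over both genotypes, a share near the 14.1% of all genes that rose. Jun, an AP-1 subunit that binds beside ETS factors, rose by 1.96 ± 0.22 (adjusted p = 0.000564), and it passed in both genotypes, at 1.61 ± 0.31 in WT (adjusted p = 0.00737) and 2.31 ± 0.30 in Elf4-/- (adjusted p = 0.00972). The call of Jun in WT was lost without WT-Control replicate 1 (adjusted p = 0.0526) or WT-EtOH replicate 2 (0.0509), and that in Elf4-/- with the 4 libraries compared alone (0.0713) and without Elf4-/--Control replicate 1 (0.113) or 2 (0.140). Its level was 8.20 and 9.57 CPM on Control and 26.7 and 27.8 CPM on EtOH in WT mice, and 8.10 and 8.95 CPM on Control and 55.6 and 28.9 CPM on EtOH in Elf4-/- mice. Runx1, a blood cell factor, was the other, at 3.23 ± 0.72 (adjusted p = 0.00932). It held 1 count in WT-Control and 29 in WT-EtOH, a ratio of 17.7 (95% exact interval 2.93 to 722), and 2 counts against 11 in Elf4-/-, a ratio of 6.56 (1.43 to 60.9). Cebpa, the hepatocyte and myeloid factor, was at -0.56 ± 0.23 (adjusted p = 0.0925). Without Elf4-/--Control replicate 1 the count was 1, with Runx1 at an adjusted p of 0.0511, and it was 4 without WT-Control replicate 1 or Elf4-/--EtOH replicate 2.

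The profile of each gene over the 8 libraries was compared with that of 9398 genes whose mean count was 50 or more, by Pearson's r of log2 CPM, as a description. The libraries share the diet and genotype groups, so high values are common. The 5 genes most like Elf4 were Actr10 (r = 0.989), Fbl (0.980), Rrn3 (0.977), Nab1 (0.976) and Psmb6 (0.968). Actr10 is a dynactin subunit, Fbl the rRNA methyltransferase fibrillarin, Rrn3 an initiation factor of RNA polymerase I and Psmb6 a proteasome subunit. For Erg they were Chst15 (0.995) and Kit (0.988), for Fli1 Kit (0.991) and Prelp (0.990), and for Ets1 Cygb (0.991) and Prelp (0.988). Cygb and Prelp are genes of stellate and stromal cells. For Spi1 they were Usp47 (0.964) and Cd300ld (0.963), a myeloid receptor, for Ets2 Nus1 (0.987) and Fam219a (0.986), and for Gabpa P4ha1 (0.994) and Dgkh (0.977). Those of Elf1 were Stk38l (0.960) and Kat8 (0.947), of Elf2 Dpy19l4 (0.972) and Sos1 (0.942), and of Elf3 Tab3 (0.949) and Parp14 (0.948).

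Among the 10 genes themselves, Erg, Fli1 and Ets1 varied most alike, with r of 0.982 between Erg and Fli1, 0.980 between Ets1 and Fli1 and 0.967 between Ets1 and Erg over the 8 libraries. Spi1 followed at 0.846 to 0.875 with these. Elf4 was at 0.677 with Ets2, 0.624 with Spi1 and 0.403 to 0.489 with Ets1, Erg and Fli1, and at -0.746 with Elf2. Its highest library was Elf4-/--EtOH replicate 2, where Ets1, Ets2, Erg and Fli1 were lower than in Elf4-/--EtOH replicate 1.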

How the data were processed

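Liver RNA, described by the authors as mRNA, was sequenced in 8 libraries. Trizol was used for extraction and a HiSeq for paired-end sequencing. The authors ran FastQC, aligned to mm10 using HISAT2, sorted using SAMtools and obtained gene counts from HTSeq. Versions, annotation and strand setting were not given in the sources used here. The deposited table holds raw read counts per gene symbol, with 1 column per library. Its 968 lines without a gene name (4.78% of lines) are blank and were left out.

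The counts of all 8 libraries were fitted in edgeR 4.0.16 (R 4.3.3) as 4 groups with TMM scaling and filterByExpr, which left 13993 genes. The 6 contrasts were EtOH against Control in WT, in Elf4-/- and as the mean of both, Elf4-/- against WT under each diet, and their interaction. Each was tested with the quasi-likelihood test, adjusted by Benjamini-Hochberg over all genes, with a threshold of 0.05. The common biological coefficient of variation was 22.68%. SE is the log2 fold change divided by the root of the F statistic, and intervals use its t quantile at 95%. The test was also tried on simulated counts with means taken from the fit of these data, and its outcome there is not given here. Library totals of 6171051 to 9157362 counts limit genes with few counts, and counting intervals are exact and ignore PCR copies. Level per length divides CPM by summed exon length in GENCODE M21.

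All 10 genes are named. Of the other ETS family, genes past the threshold in a diet contrast are named, and of each target or partner list the 3 with the smallest p over both genotypes. The nearest profiles are 5 for Elf4 and 2 for each other gene. Members and lists were chosen with earlier results of these data known. Alternatives were DESeq2 1.42.0, its size factors, library totals, no filter, a mean of at least 10 counts, the replicate number as a block, the 4 libraries compared alone, and each library left out.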

Additional observations from a re-analysis of the deposited data

How the results depend on the processing

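With 1 library left out in turn, the number of the 10 genes called ran from 2 to 5 over both genotypes, 0 to 5 for diet in WT and 0 to 1 for diet in Elf4-/-. It was 0 for both genotype comparisons and the interaction under each setting that was run. Elf4 for diet over both genotypes ran from 1.09 to 1.65 (log2), for genotype under EtOH from -0.67 to 0.35 and for the interaction from -0.14 to 0.88, so its sign was not fixed in the last pair. No pairing of libraries is stated, and the correlation of same-numbered deviations ran from -0.134 to 0.114 over 9398 genes. With 1 deviation per group, a weak pairing or one that does not follow the replicate number could not be seen. With the replicate block, 6 genes were called over both genotypes and 3 for diet in WT, and all-gene calls went to 1351 higher and 1288 lower in WT, 136 and 104 in Elf4-/-, 8 and 2 for genotype under EtOH. The replicate block moved Elf3 to 0.067 for diet in WT and to -0.025 for genotype under control diet. Library totals turned the sign of 3 values of the 10 genes that were not called, Elf2 (0.35) and Elf3 (0.40) for diet in WT and Spi1 (0.17) for genotype under control diet, and of Mdm2 in WT (0.395) and over both genotypes (0.094) and Etv1 in Elf4-/- (-0.045). Leaving out 1 library also turned signs of genes that were not called. For diet in WT, Elf2 ran from -0.26 to 0.11 and Elf3 from -0.61 to 0.96, and Mdm2 from -0.236 to 0.121. For diet in Elf4-/-, Elf1 ran from -0.55 to 0.20, Elf3 from -0.22 to 2.41 and Gabpa from -0.11 to 0.026. Of the other genes there, Etv1 ran from -0.702 to 0.956, Spic from -0.414 to 0.038 and Fcgr3 from -0.082 to 0.592. Over both genotypes Elf1 ran from -0.057 to 0.32 and Elf3 from -0.12 to 1.19. For genotype under EtOH, Elf1 ran from -0.68 to 0.055 and Ets2 from -0.60 to 0.23. Under control diet, Elf3 ran from -1.83 to 1.08, Ets2 from -0.22 to 0.30 and Spi1 from -0.48 to 0.54. For the interaction, Elf3 ran from -0.47 to 2.44 and Ets2 from -0.67 to 0.15. The cause was not tested. Elf3 was not tested with a mean of at least 10 counts or in some fits of 4 libraries, and Elf4 not in that of genotype under control diet. Low counts limit Elf3, Elf4, Etv1 and Runx1. Among all genes, DESeq2 called 443 higher in Elf4-/- where edgeR called 239, 148 higher and 30 lower for genotype under EtOH where edgeR called 20 in all, 40 higher and 30 lower under control diet where edgeR called 2 in all, and 71 higher and 27 lower for the interaction where edgeR called 0.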
